A study of Homo sapiens with 12 samples.

Results

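The transcription factors that set the squamous lineage were followed in 2 head and neck squamous carcinoma (HNSCC) cell lines treated with squamocin, an annonaceous acetogenin. The set holds 10 genes, TP63, SOX2, KLF4, KLF5, GRHL2, GRHL3, ZNF750, OVOL1, TFAP2A and TFAP2C, chosen by name out of the 34227 genes listed for either cell line. SCC15 and SCC25 cells, which the labels describe as oral squamous cells of genotype WT, received 10 µg/mL squamocin (named ACGs in the labels) or the solvent DMSO for 24 h. Each combination of cell line and treatment gave 3 RNA-seq libraries, 12 in all, and nothing beyond treatment and cell line separates the groups in the labels. All 10 genes had an entry in the SCC25 table. The SCC15 table held 9, and GRHL2 was not analysed there. The values, here called normalized counts, are read counts after the authors had divided them by a size factor for each library, separately in SCC15 and SCC25. The labels do not say that replicates were separate cultures, so the p-values measure the spread between these libraries, which may be technical.

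Squamous epithelia are built by a small network of transcription factors. TP63 keeps basal cells in their stem-like state and opens the enhancers of keratin and desmosome genes, SOX2 is often co-amplified with it on the long arm of chromosome 3 in squamous carcinomas, and TFAP2A and TFAP2C (the AP-2 factors) bind beside p63. KLF5 marks proliferating basal cells, and KLF4, ZNF750, OVOL1 and GRHL3 take over as cells leave the basal layer, stop dividing and form a barrier.

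The depth ran from 16665563 to 22748845 reads per library, as recovered from the values. Squamocin replicate 3 of SCC15 stood apart, with a median absolute log2 difference of 0.383 from the other 2 libraries of its group, against 0.0729 to 0.240 for the other 11 libraries. The factors and gene lists in SCC15 are therefore also given without it. Of the other genes named for SCC15, none lost its call without it. STPG1 gained one (-0.46, adjusted p = 0.00166, limma), as did the list genes SPINT1, MAL2, ST14 and FN1. The log2 fold change of LAMA3 moved from -0.61 to -0.35. The labelled cell type was checked on 10 squamous marker genes. In SCC25 cells all 10 had a mean of at least 10 normalized counts in both treatments. In SCC15 cells KRT5, the basal keratin, KRT6B and the desmosomal cadherins DSG3 and DSC3 stayed under this level in both treatments, while KRT14, KRT17, KRT6A, PKP1, SFN and CDH3 were above it. KRT5 averaged 9.50 ± 4.04 normalized counts (SD, n = 3) with DMSO in SCC15 and 5627 ± 75.7 in SCC25, each on the scale of its own table. VIM, the mesenchymal intermediate filament, averaged 2.21 ± 1.21 (SD, n = 3) in SCC15 and 4.73 ± 5.26 in SCC25 with DMSO. ZEB1, a repressor of epithelial genes, averaged 533 ± 7.30 in SCC15 and 3.94 ± 2.82 in SCC25. Markers of other cell types were also read. Summed over each list, 5 immune markers held 6.84 to 37.8 normalized counts in any library. The 3 endothelial markers summed to 158 to 178 with DMSO and 66.1 to 77.1 with squamocin in SCC15, and to 231 to 294 and 19.8 to 36.6 in SCC25. The 6 fibroblast markers summed to 708 to 784 and 482 to 486 in SCC15, and to 766 to 810 and 1073 to 1228 in SCC25. The leading fibroblast gene was COL3A1 in SCC15, at 259 ± 16.2 with squamocin (SD, n = 3) and a mean of 445 with DMSO, and COL1A1 in SCC25, at 576 ± 19.8 with DMSO and 938 ± 88.9 with squamocin. CDH5 and LYZ had no entry in the SCC15 table, PTPRC had none in the SCC25 table, and LYZ and DCN stood at 0 in the SCC25 squamocin libraries. The part of these lists in the results was not tested.

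**Figure D1:**
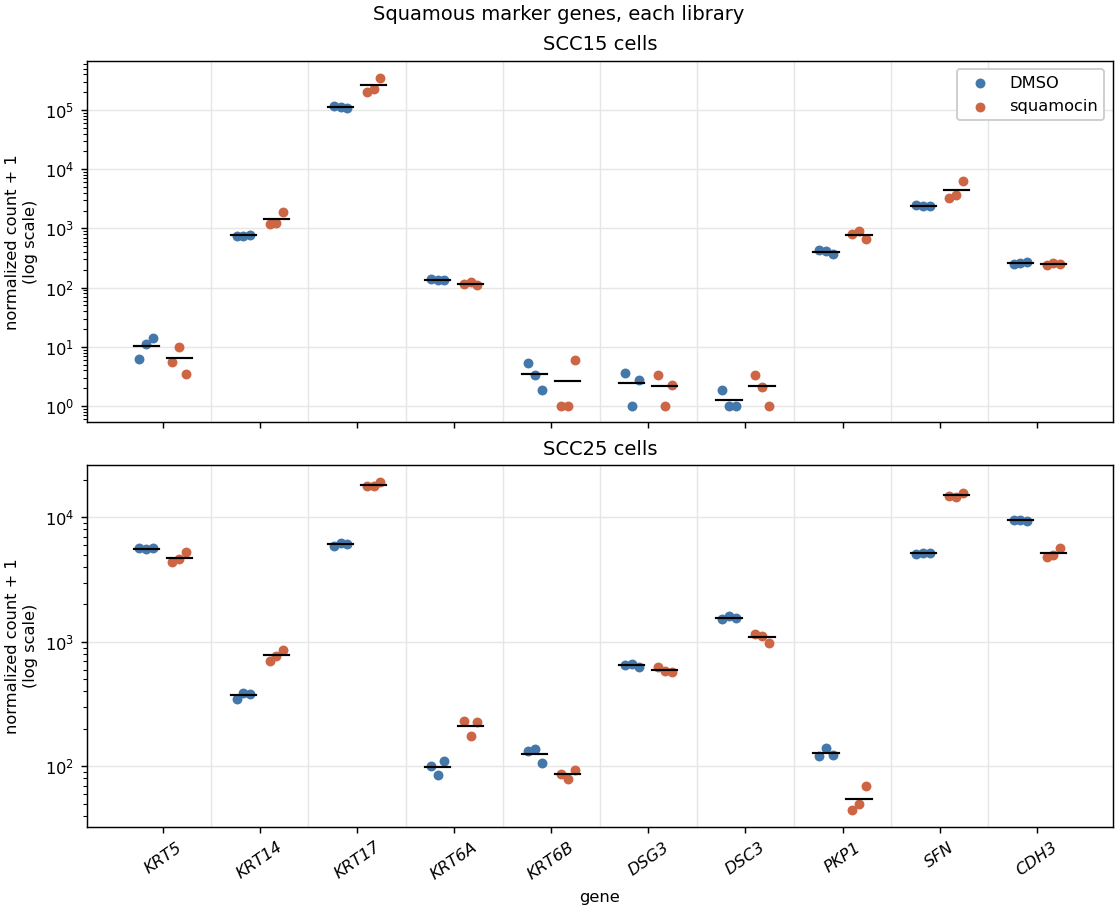
Normalized count plus 1 (log axis) of 10 squamous marker genes in each library of SCC15 (top) and SCC25 (bottom), with DMSO in blue, squamocin in orange and bars for the means of 3 libraries. KRT5, KRT6B, DSG3 and DSC3 lie at the bottom of the SCC15 panel, while every gene lies above 10 in SCC25.

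The first question was which of the factors changed with squamocin in each cell line. In SCC15 cells, KLF4 and KLF5 rose and TFAP2A and TFAP2C fell. In SCC25 cells, KLF4, KLF5, TP63, TFAP2A, OVOL1 and GRHL3 rose, while GRHL2 and ZNF750 fell. Genes with a mean of at least 10 normalized counts over the 6 libraries of a cell line were tested by limma, after adding 1 to each normalized count and taking log2, with adjustment after Benjamini and Hochberg over all genes tested and a threshold of 0.05. This left 5 members in SCC15 and 9 in SCC25. Of the 5 in SCC15, 2 were higher and 2 lower, against 30.9% of all 15902 genes tested called higher and 30.0% called lower. Of the 9 in SCC25, 6 were higher and 2 lower, against 38.3% and 38.5% of 16539 genes. GRHL3 reached the mean of 10 in SCC25 through its squamocin libraries alone, and among the other 8 members 5 were higher and 2 lower. KLF4 and KLF5 were higher in both cell lines, 2 of the 5 members tested in both, against 22.1% of 14454 genes. Calls were thus common across all genes. In these bulk samples, fewer cells that express a gene and less RNA of it per cell cannot be told apart.

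**Figure D2:**
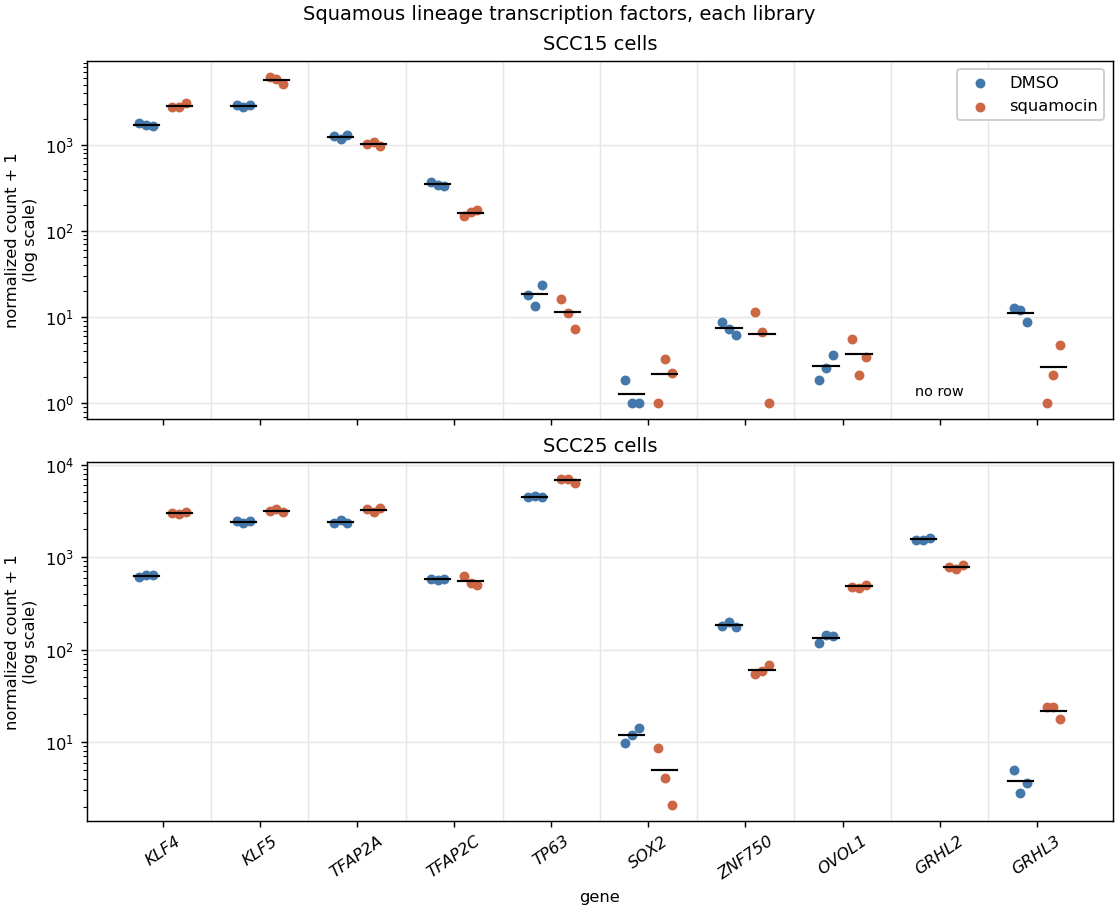
Normalized count plus 1 (log axis) of the 10 factors in each library of SCC15 (top) and SCC25 (bottom), with DMSO in blue, squamocin in orange and bars for the means of 3 libraries. Points of the treatments are separate for KLF4 and KLF5 in both panels, and TP63 lies between 6.22 and 22.7 in SCC15 and between 4466 and 7030 in SCC25.

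**Figure D3:**
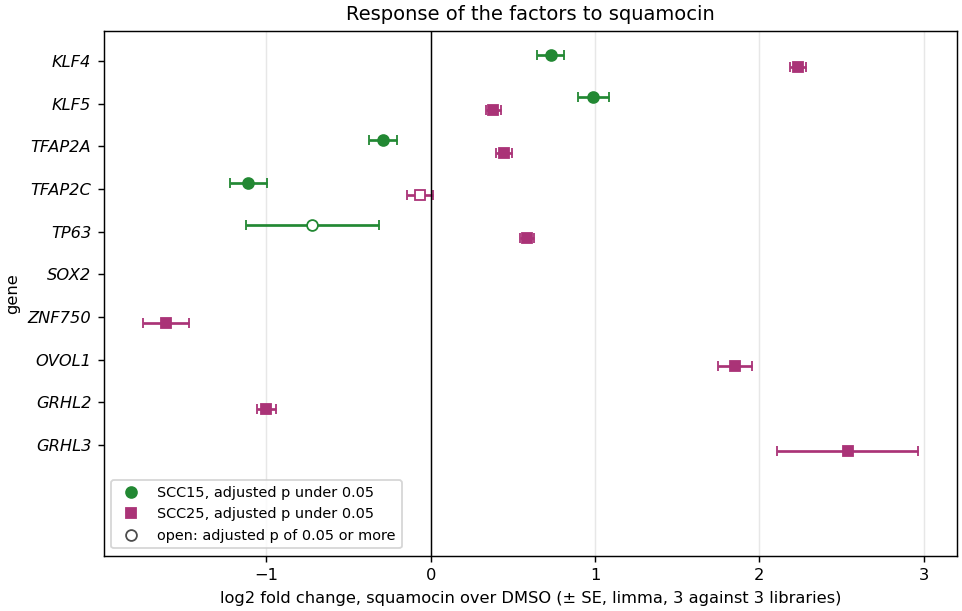
Log2 fold change of squamocin over DMSO for each tested factor (horizontal axis), with the standard error from limma, for SCC15 (green circles) and SCC25 (purple squares). Open symbols mark an adjusted p of 0.05 or more, and the TFAP2A symbols lie on opposite sides of 0, at -0.29 and 0.44.

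The authors' scaling bears on these values. With library totals made equal within a cell line, the median log2 fold change of all genes moved from 0.01 to -0.48 in SCC15 and from -0.01 to -0.22 in SCC25. Equal totals scale each library by 1 factor, so all genes shift alike apart from the added count of 1. That the tested members moved by at most 0.038 in SCC15 and 0.031 in SCC25 relative to that median therefore follows from the scaling. The unadjusted log2 fold changes under equal totals were 0.23 for KLF4, 0.49 for KLF5 and -0.79 for TFAP2A in SCC15, and 0.17 for KLF5, 0.24 for TFAP2A and 0.38 for TP63 in SCC25, all with the same direction and call.

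KLF4 and KLF5 are zinc finger factors of one family that bind the same GC-rich boxes, KLF4 being best known for barrier formation and exit from the cell cycle and KLF5 for growth of basal cells. KLF4 (ENSG00000136826, chromosome 9, 107484852 to 107490482, minus strand, GRCh38) had normalized counts of 2781, 2776 and 3063 with squamocin and 1815, 1692 and 1687 with DMSO in SCC15 cells. Every squamocin library lay above every DMSO library, and the log2 fold change was 0.73 (SE 0.084, adjusted p = 3.35e-04, limma). In SCC25 cells the counts were 2979, 2902 and 3040 with squamocin against 610, 640 and 640 with DMSO. The groups were again apart, by a log2 fold change of 2.24 (SE 0.048, adjusted p = 1.09e-12, limma), or 4.71-fold.

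KLF5 (ENSG00000102554, chromosome 13, 73054976 to 73077542, plus strand) had the larger rise of the pair in SCC15 cells, from 2936, 2786 and 2928 normalized counts with DMSO to 6136, 5881 and 5198 with squamocin. Its log2 fold change there was 0.99 (SE 0.093, adjusted p = 1.42e-04, limma). In SCC25 cells, KLF5 held 3119, 3303 and 3046 with squamocin and 2470, 2334 and 2465 with DMSO. These groups did not overlap either, with a log2 fold change of 0.38 (SE 0.046, adjusted p = 7.99e-06, limma). Without squamocin replicate 3, the SCC15 values were 0.68 for KLF4 and 1.06 for KLF5.

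The balance within the pair was read from the ratio of KLF4 to KLF5 reads in each library, which no size factor can change. In SCC25 cells it went from 0.260 ± 0.0137 (SD, n = 3) with DMSO to 0.944 ± 0.0603 with squamocin. In SCC15 cells it was 0.601 ± 0.0219 with DMSO and 0.505 ± 0.0737 with squamocin, and the ranges overlapped. The two-sided exact permutation test gave p = 0.1 in SCC25, the smallest that 3 libraries against 3 allow, and p = 0.2 in SCC15. Ratios were added once values were known.

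**Figure D4:**
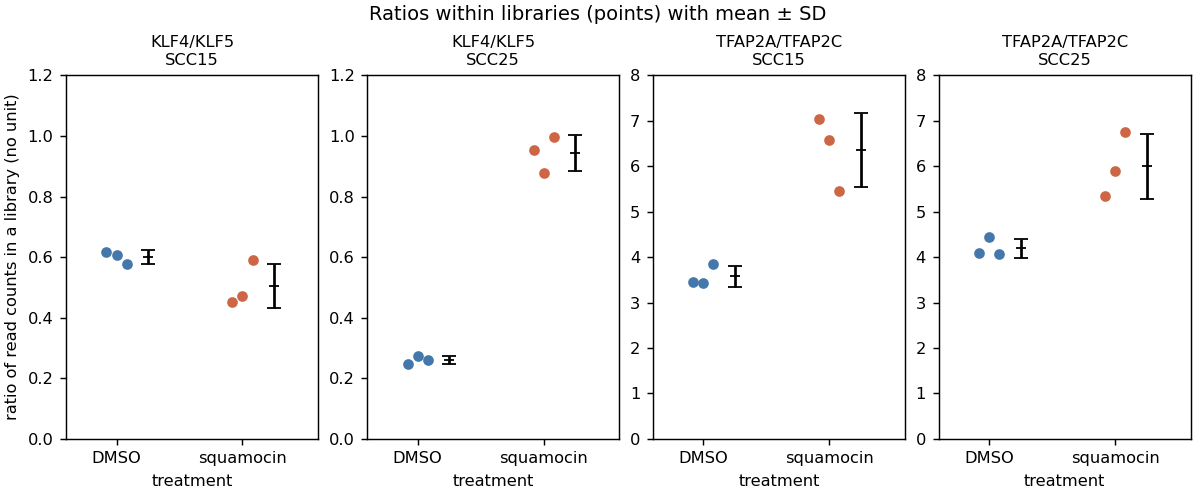
Ratio of the reads of KLF4 to KLF5 and of TFAP2A to TFAP2C within each library (points), with mean ± SD of 3 libraries, by cell line and treatment. The KLF4 to KLF5 ratio lies near 0.26 with DMSO and near 0.94 with squamocin in SCC25, and the TFAP2A to TFAP2C ratio is higher with squamocin in both cell lines.

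Because KLF4 and KLF5 were the members that rose in both cell lines, the 250 bases before their annotated starts are shown, from RefSeq on GRCh38.p14, read 5′ to 3′ on the strand of the gene. Capitals mark matches to CCNCNCCC, the core of the box that KLF factors bind, on either strand, and overlapping matches are merged. In GENCODE release 44 the KLF4 window (chr9:107489770-107490019, minus strand) is intronic to 1 longer KLF4 transcript. The KLF5 gene has 2 starts, an upstream one (window chr13:73054726-73054975, plus strand) and an inner one (window chr13:73058755-73059004), whose window is intronic to the longer transcripts.
KLF4: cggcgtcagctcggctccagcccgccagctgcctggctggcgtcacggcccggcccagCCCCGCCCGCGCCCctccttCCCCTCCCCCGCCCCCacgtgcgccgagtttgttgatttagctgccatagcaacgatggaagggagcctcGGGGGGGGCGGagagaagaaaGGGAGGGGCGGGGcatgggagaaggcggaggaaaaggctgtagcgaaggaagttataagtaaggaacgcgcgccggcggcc
KLF5, upstream start: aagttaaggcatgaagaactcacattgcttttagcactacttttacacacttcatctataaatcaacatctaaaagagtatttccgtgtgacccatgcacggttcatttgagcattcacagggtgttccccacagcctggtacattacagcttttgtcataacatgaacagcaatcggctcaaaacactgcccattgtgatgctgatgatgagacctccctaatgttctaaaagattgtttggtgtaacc
KLF5, inner start: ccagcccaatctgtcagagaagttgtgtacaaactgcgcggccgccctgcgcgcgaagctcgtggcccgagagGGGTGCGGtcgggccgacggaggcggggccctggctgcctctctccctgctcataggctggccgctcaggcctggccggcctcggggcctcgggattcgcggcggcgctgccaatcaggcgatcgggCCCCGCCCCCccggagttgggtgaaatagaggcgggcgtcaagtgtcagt

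The KLF4 window held 10 overlapping matches to CCNCNCCC and the inner KLF5 window 3, while the upstream KLF5 window held none. Of all 35116 promoter windows of this length, 53.4% held the motif. The KLF4 window and the inner KLF5 window were also richer in G and C, at 69.2% and 70.8%, than the upstream KLF5 window, at 40.8%. The KLF4 window further held 1 match each to CACGTG, the E-box, and GCCNNNGGC, an AP-2 core, which 6.34% and 19.8% of all windows held. Of the 10 members, 6 were in the RefSeq table, with 9 windows. The motif CCNCNCCC was also found at SOX2, at 1 of the 2 starts of GRHL3 and at both starts of TFAP2A, and GCCNNNGGC at SOX2 and at the other GRHL3 start. No member's window held AACCGGTT, which GRHL factors bind, TGATGCAA, a composite site of ATF4, or the ER stress element, and 0.117%, 0.772% and 0.074% of all windows did. The counts do not tell which start was used.

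The AP-2 factors TFAP2A and TFAP2C bind one motif and act together in epidermal precursors. TFAP2C (ENSG00000087510, chromosome 20, 56629302 to 56639283) fell in SCC15 cells from 372, 346 and 337 normalized counts with DMSO to 147, 164 and 177 with squamocin. The ranges lay well apart, and the log2 fold change was -1.11 (SE 0.11, adjusted p = 2.01e-04, limma), or -1.17 without squamocin replicate 3. In SCC25 cells it held 622, 522 and 504 with squamocin and 575, 563 and 581 with DMSO. There the groups overlapped, and a log2 fold change of -0.07 (SE 0.081) did not pass the threshold (adjusted p = 0.464, limma). Under equal library totals, TFAP2C was called lower in SCC25, at -0.27 (adjusted p = 0.00698, limma).

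TFAP2A (ENSG00000137203, chromosome 6, 10393186 to 10419659) had opposite calls in the cell lines. In SCC15 cells its counts were 1035, 1079 and 966 with squamocin and 1286, 1188 and 1297 with DMSO, a log2 fold change of -0.29 (SE 0.086, adjusted p = 0.0206, limma). The ranges did not overlap, but the margin was small. The call was lost without DMSO replicate 1 (adjusted p = 0.0860, limma) and without DMSO replicate 3 (adjusted p = 0.0943, limma), and the log2 fold change without squamocin replicate 3 was -0.25. In SCC25 cells TFAP2A rose from 2346, 2496 and 2361 to 3321, 3075 and 3408 normalized counts. The log2 fold change there was 0.44 (SE 0.049, adjusted p = 3.42e-06, limma).

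The ratio of TFAP2A to TFAP2C reads within a library was higher with squamocin in both cell lines. It was 6.36 ± 0.806 (SD, n = 3) against 3.58 ± 0.235 with DMSO in SCC15, and 6.0 ± 0.715 against 4.19 ± 0.207 in SCC25. Each squamocin library exceeded each DMSO library of its cell line, and the two-sided exact permutation test gave p = 0.1 in both, the smallest possible.

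Antisense transcripts overlap TFAP2A, and whether the library kit kept strand is not given in the sources used here, so reads of both strands may not be told apart. TFAP2A-AS1, which lies wholly within TFAP2A, averaged 154 ± 17.5 normalized counts (SD, n = 3) with squamocin and 60.2 ± 10.2 with DMSO in SCC15, and 167 ± 6.76 and 30.7 ± 6.55 in SCC25. It rose in both cell lines, by log2 fold changes of 1.35 (SE 0.17, adjusted p = 5.17e-04, limma) and 2.42 (SE 0.18, adjusted p = 8.14e-08, limma). TFAP2A-AS2 was called in SCC25, where it averaged 163 ± 13.7 with squamocin against 60.2 ± 2.65 with DMSO, a log2 fold change of 1.42 (SE 0.13, adjusted p = 7.46e-07, limma). In SCC15 it averaged 35.1 ± 6.04 and 25.1 ± 9.16, and its log2 fold change of 0.52 did not pass (adjusted p = 0.188, limma). TFAP2A-AS1 was thus higher in the SCC15 libraries in which TFAP2A itself was lower.

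TP63 (ENSG00000073282, chromosome 3, 189631416 to 189897279) encodes p63, whose ΔN form is the main regulator of basal keratinocytes. The counts are per gene, so the TA and ΔN forms could not be told apart. In SCC25 cells TP63 had 7030, 6956 and 6356 normalized counts with squamocin and 4474, 4596 and 4466 with DMSO. All squamocin libraries were above all DMSO libraries, with a log2 fold change of 0.59 (SE 0.045, adjusted p = 1.00e-07, limma). In SCC15 cells TP63 was close to the filter, with 15.1, 10.3 and 6.22 normalized counts with squamocin and 17.1, 12.7 and 22.7 with DMSO, or 27 reads against 62 in all. The ranges overlapped, and the log2 fold change of -0.72 (SE 0.40) was not called (adjusted p = 0.157, limma). It was -0.42 without squamocin replicate 3, and under equal library totals it was called, at -1.18 (adjusted p = 0.0462, limma). Genes known as p63 targets were not all low in SCC15. KRT5, DSG3 and DSC3 were, while LAMB3 averaged 19300 ± 440 normalized counts, PERP 7917 ± 228, ITGA6 2626 ± 102 and KRT14 759 ± 8.06 with DMSO (SD, n = 3).

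In SCC25 cells TP73, the p53 family member closest to TP63, moved the other way, from 980 ± 25.9 normalized counts (SD, n = 3) with DMSO to 101 ± 21.5 with squamocin. Its log2 fold change was -3.28 (SE 0.12, adjusted p = 1.38e-10, limma). The ratio of TP63 to TP73 reads within a library was 4.60 ± 0.121 with DMSO and 68.5 ± 12.9 with squamocin. In SCC15 cells TP73 averaged 3.97 ± 2.65 with DMSO and had 0 in each squamocin library, and it was not tested.

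SOX2 (ENSG00000181449, chromosome 3, 181711924 to 181714436), a pioneer factor of the foregut and of squamous carcinoma, was barely read in either cell line. In SCC25 cells it had 7.63, 3.12 and 1.11 normalized counts with squamocin and 8.87, 10.8 and 13.3 with DMSO, without overlap but under the filter. The 10 reads with squamocin and 38 with DMSO gave a level 2.89 times as high with DMSO, with an exact 95% counting interval of 1.41 to 6.51, which covers counting error only. When all genes above 0 were tested, SOX2 was called lower in SCC25 (log2 fold change -1.49, adjusted p = 0.0418, limma). In SCC15 cells there were 3 reads with squamocin and 1 with DMSO, too few for a fold. SOX2-OT, the long RNA that holds SOX2 within it on the same strand, averaged 4.82 ± 4.63 with squamocin and 5.45 ± 0.866 with DMSO in SCC25 (SD, n = 3).

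TP63 and SOX2 sit on a stretch of chromosome 3 that is often gained in squamous carcinomas, and 12 other genes of it were read as a list. In SCC25 cells 8 of the 12 were higher, 3 lower and 1 not called, with a median log2 fold change of 0.47. Of all genes tested there, 38.3% were higher and 38.5% lower (median -0.01). In SCC15 cells 5 were higher, 4 lower and 3 not called, with a median of -0.02, and without squamocin replicate 3 the counts were 5, 5 and 2. Of all genes tested in SCC15, 30.9% were higher and 30.0% lower (median 0.01). ETV5 (1.23) and LPP (1.18) had the largest rises in SCC25, and MECOM (-1.28) and EIF4G1 (-1.19) the largest falls, as log2 fold changes. In SCC15 MECOM (-1.43) and PIK3CA (-0.76) fell most, and LPP (0.68) and FXR1 (0.65) rose most, though LPP lost its call without any 1 of 5 libraries (all but squamocin replicate 3) and both lost it under equal library totals. Genes of the stretch did not move as a block in either cell line. PIK3CA, the catalytic subunit of PI3-kinase, rose in SCC25, with a log2 fold change of 0.64 (SE 0.061, adjusted p = 7.54e-07, limma).

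ZNF750 and OVOL1 act downstream of p63 as cells differentiate, ZNF750 as an activator of late genes with KLF4 and OVOL1 as a repressor that ends the progenitor state. OVOL1 (ENSG00000172818, chromosome 11, 65787022 to 65797219) rose in SCC25 cells from 116, 143 and 141 normalized counts with DMSO to 478, 463 and 504 with squamocin. The groups were far apart, with a log2 fold change of 1.85 (SE 0.10, adjusted p = 3.99e-09, limma), or 3.61-fold. In SCC15 cells it was read 7 times with squamocin and 6 times with DMSO, a ratio of 1.64 with a counting interval of 0.473 to 5.92, so no difference was detectable at this depth. OVOL1-AS1, on the opposite strand, averaged under 10 normalized counts in all groups.

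ZNF750 (ENSG00000141579, chromosome 17, 82829435 to 82840578) went the other way in SCC25 cells, from 179, 197 and 173 normalized counts with DMSO to 53.4, 57.2 and 67.7 with squamocin. No library overlapped, and the log2 fold change was -1.61 (SE 0.14, adjusted p = 3.28e-07, limma). The 2 partners in late differentiation, KLF4 and ZNF750, thus had opposite calls in SCC25. In SCC15 cells ZNF750 had 14 reads with squamocin and 23 with DMSO, a level 1.17 times as high with DMSO with a counting interval of 0.575 to 2.45. The gene lies inside TBCD, a tubulin chaperone on the other strand, which also fell in SCC25 cells, from 1147 ± 10.5 (SD, n = 3) to 598 ± 27.8. The log2 fold change of TBCD was -0.94 (SE 0.057, adjusted p = 1.02e-08, limma), and the part of its reads in the ZNF750 count was not tested.

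The grainyhead-like factors GRHL2 and GRHL3 keep epithelial junctions and build the barrier. GRHL2 (ENSG00000083307, chromosome 8, 101492432 to 101669726) fell in SCC25 cells from 1545, 1543 and 1594 normalized counts with DMSO to 775, 734 and 830 with squamocin. The level was 2.00 times as high with DMSO, with no overlap, and the log2 fold change was -1.0 (SE 0.057, adjusted p = 5.67e-09, limma). The ratio of TP63 to GRHL2 reads within a library went from 2.89 ± 0.0890 (SD, n = 3) to 8.73 ± 0.956. GRHL3 (ENSG00000158055, chromosome 1, 24319322 to 24364482) rose in SCC25 from 4.03, 1.80 and 2.66 normalized counts to 22.9, 22.9 and 16.7. This rested on 55 reads with squamocin and 10 with DMSO, a ratio of 7.23 with an exact 95% counting interval of 3.65 to 15.9, and limma gave a log2 fold change of 2.54 (SE 0.43, adjusted p = 1.41e-04). GRHL3 was tested through its squamocin libraries alone, averaging 2.83 with DMSO, so that it had to differ to be tested. Its log2 fold change also depended on the pseudocount, at 1.26 with 10 and 2.89 with 0.1.

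In SCC15 cells GRHL3 had the opposite order, with 0, 1.14 and 3.73 normalized counts with squamocin and 11.9, 11.1 and 7.86 with DMSO. The groups did not overlap, but the gene was under the filter, with 4 reads against 37. The level was 6.57 times as high with DMSO, with a counting interval of 2.36 to 25.4. With all genes above 0 tested, limma called GRHL3 lower in SCC15 (adjusted p = 0.0157) and its response different between the cell lines (adjusted p = 1.10e-04). STPG1, which overlaps GRHL3 on the other strand, averaged 292 ± 20.7 with squamocin and 188 ± 4.63 with DMSO in SCC25 (SD, n = 3), and 153 ± 31.1 and 187 ± 6.33 in SCC15. STPG1 rose in SCC25, by a log2 fold change of 0.63 (SE 0.093, adjusted p = 4.43e-05, limma), and its part in the GRHL3 counts was not tested. The other genes that overlap members, AL138902.1 at GRHL3, AP001207.1 and AP001207.2 at GRHL2 and MIR944 at TP63, averaged under 10 normalized counts in each group where they were listed.

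Next, limma was asked whether the log2 fold change of a factor in SCC15 differed from that in SCC25, for genes past the filter in both tables. All 5 members with a test passed the threshold, against 52.2% of 14454 genes. The difference, SCC15 minus SCC25, was 0.61 for KLF5 (SE 0.10, adjusted p = 2.99e-04, limma) and -1.51 for KLF4 (SE 0.092, adjusted p = 9.98e-08, limma). KLF5 thus rose more in SCC15 and KLF4 more in SCC25. The difference for KLF5 was not called under equal library totals, at 0.32 (adjusted p = 0.0889, limma). For TFAP2A it was -0.74 (SE 0.10, adjusted p = 5.50e-05, limma), and for TFAP2C -1.04 (SE 0.14, adjusted p = 5.68e-05, limma). For TP63 it was -1.31 (SE 0.34, adjusted p = 0.00612, limma), with the SCC15 side resting on 27 reads with squamocin and 62 with DMSO. Without squamocin replicate 3 of SCC15, all 5 differences kept their calls, with -1.01 for TP63. With all genes above 0 tested, limma also called the differences of GRHL3 and of OVOL1 (-1.42, adjusted p = 0.0376). OVOL1 had 7 reads with squamocin and 6 with DMSO in SCC15. That fit did not call SOX2 (adjusted p = 0.0615, limma) or ZNF750 (adjusted p = 0.531, limma).

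Levels of different genes were set in order per kb of exonic sequence (GENCODE release 44), within a cell line and treatment. In SCC15 with DMSO the order was KLF5 (784 ± 22.9 normalized counts per kb, SD, n = 3), KLF4 (473 ± 19.9), TFAP2A (153 ± 7.36) and TFAP2C (117 ± 6.04). The remaining 5 factors lay between 0.113 and 2.41 per kb, and GRHL3, TP63 and ZNF750 could not be ordered beyond their spread. With squamocin the first 4 places were unchanged. In SCC25 with DMSO, KLF5 (659 ± 21.0 per kb) stood above TP63 (603 ± 9.73), TFAP2A (292 ± 10.1), GRHL2 (258 ± 4.81), TFAP2C (191 ± 2.98) and KLF4 (172 ± 4.75), with no overlap between neighbours. With squamocin, TP63 (907 ± 49.4 per kb), KLF5 (858 ± 35.9) and KLF4 (812 ± 18.8) came first, and the ranges of TP63 and KLF5 and of KLF5 and KLF4 overlapped. KLF4 had thus moved from the sixth place to the leading group, and GRHL2 lay behind TFAP2C, with a range that overlapped that of OVOL1.

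Other transcription factors of keratinocytes were read from a list of 33 genes. In SCC15, 7 of the 23 tested were higher, 11 lower and 5 not called (median log2 fold change -0.43, all genes 0.01), and the counts without squamocin replicate 3 were equal. In SCC25, 10 of 26 were higher, 7 lower and 9 not called (median -0.05, all genes -0.01). In each cell line 1 gene reached the mean of 10 through DMSO alone. Of the other 22 in SCC15, 7 were higher and 11 lower, and of the other 25 in SCC25, 10 were higher and 6 lower. The shares over all genes were 30.9% higher and 30.0% lower in SCC15, and 38.3% and 38.5% in SCC25. CEBPB, a bZIP factor of suprabasal cells, averaged 30989 ± 760 normalized counts with squamocin against 3855 ± 154 with DMSO in SCC25 (SD, n = 3), a log2 fold change of 3.01 (SE 0.041, adjusted p = 2.00e-14, limma). KLF6, a relative of KLF4 and KLF5, had the second largest rise in SCC25, at 2.02 (SE 0.046). In SCC15 the leading rises were those of ELF3, an epithelial ETS factor, at 3.40 (SE 0.17, adjusted p = 1.25e-05, limma), and CEBPD, at 2.12 (SE 0.23). CEBPB (2.04) and KLF6 (1.37) were also called higher in SCC15, and ELF3 (0.22) and CEBPD (0.57) in SCC25, as log2 fold changes. EHF, a relative of ELF3, fell in SCC15 from 1032 ± 77.6 to 172 ± 19.6 (log2 fold change -2.58, SE 0.12, adjusted p = 1.09e-05, limma). FOXE1, a forkhead factor of foregut epithelium, fell in both cell lines, with log2 fold changes of -3.02 in SCC15 and -1.37 in SCC25.

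The basal programme was read from 18 genes known as basal markers or p63 targets. In SCC25, where TP63 rose, 7 were higher, 10 lower and 1 not called (median log2 fold change -0.25). Of these, 1 gene, called lower, reached the mean of 10 through its DMSO libraries alone, so that it had to differ to be tested. Of the other 17, 7 were higher and 9 lower. All genes tested gave 38.3% higher and 38.5% lower there (median -0.01). KRT15, a keratin of basal stem cells, fell from 10649 ± 120 normalized counts to 355 ± 36.7 (SD, n = 3), which was -4.91 as a log2 fold change (SE 0.064, adjusted p = 1.51e-14, limma). IGFBP3, which binds insulin-like growth factors, fell by 1.89 (SE 0.080) on the log2 scale. Both had the opposite call in SCC15, where KRT15 had a log2 fold change of 2.12 (SE 0.25, adjusted p = 3.83e-04, limma) and IGFBP3 had a log2 fold change of 0.74 (SE 0.10, adjusted p = 7.40e-04, limma). In SCC25 PERP, a desmosomal p63 target, rose from 4870 ± 160 to 10483 ± 770, and its log2 fold change was 1.10 (SE 0.052, adjusted p = 1.10e-09, limma). In SCC15, 7 of the 17 tested were higher, 4 lower and 6 not called (median 0.02), and without squamocin replicate 3 the counts were 7, 5 and 5. All genes tested gave 30.9% higher and 30.0% lower in SCC15 (median 0.01). There LAMB3 (1.71) was among the rises, and NECTIN1 (-0.90) and LAMA3 (-0.61) led the falls, all as log2 fold changes, with LAMA3 losing its call without any 1 of the DMSO replicates. Among the 17 with a test in each line, 5 rose in both, 3 fell in both and 2, KRT15 and IGFBP3, had opposite calls.

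**Figure D5:**
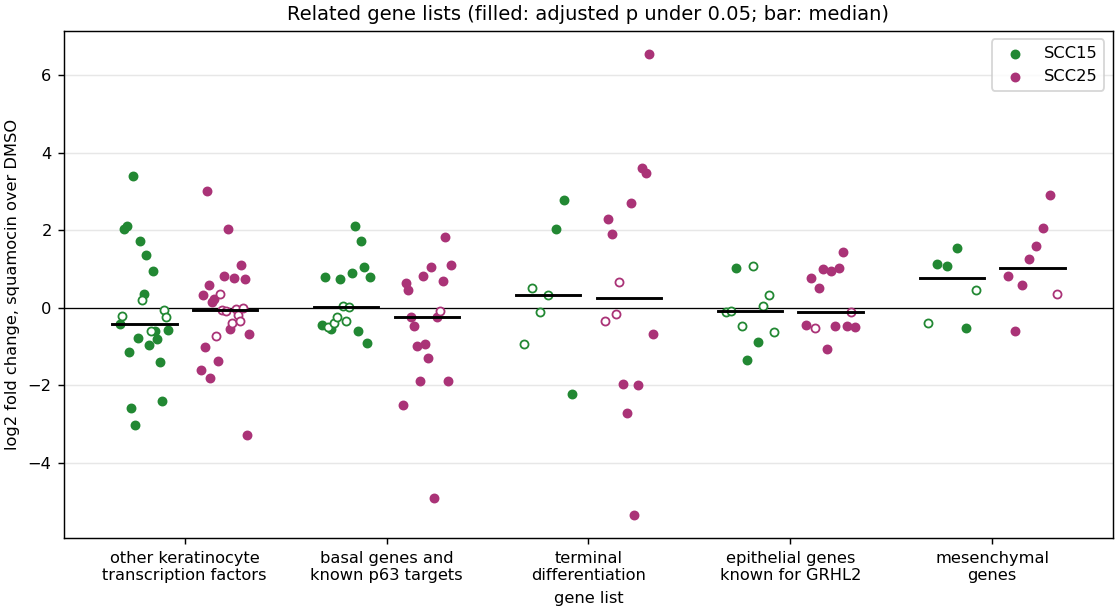
Log2 fold change of squamocin over DMSO (vertical axis) for the tested genes of 5 lists in SCC15 (green) and SCC25 (purple), filled where the adjusted p from limma was under 0.05, with bars for the medians. Genes lie on both sides of 0 in each list, and the mesenchymal list has the highest medians, 0.78 in SCC15 and 1.04 in SCC25. The SCC25 median includes ZEB1 and VIM, which were tested through their squamocin libraries alone.

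Terminal differentiation genes, the usual targets of KLF4, ZNF750 and GRHL3, were read from 28 genes. Only 7 were tested in SCC15, with 2 higher, 1 lower and 4 not called, and 14 in SCC25, with 6 higher, 5 lower and 3 not called. Without squamocin replicate 3, 2 were higher and 2 lower in SCC15. Some genes reached the mean of 10 through 1 treatment alone, 3 in SCC15 and 5 in SCC25. Of the other 4 in SCC15, 2 were higher and 0 lower, and of the other 9 in SCC25, 3 were higher and 3 lower. The shares over all genes tested were 30.9% higher and 30.0% lower in SCC15, and 38.3% and 38.5% in SCC25. KRT10, the first suprabasal keratin, rose in both cell lines, with log2 fold changes of 2.04 (SE 0.24, adjusted p = 3.47e-04, limma) in SCC15 and 2.71 (SE 0.084, adjusted p = 2.47e-11, limma) in SCC25. ALOX12B, a lipoxygenase of the lipid barrier, rose in SCC25 by 2.29 (SE 0.18, adjusted p = 1.12e-07, limma) on the log2 scale. KLK5, a protease that sheds surface cells, fell there from 813 ± 36.7 to 208 ± 18.0 (SD, n = 3), or -1.96 as a log2 fold change (SE 0.081, adjusted p = 3.31e-10, limma). Rises and falls were thus both present within the late programme in SCC25.

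Epithelial genes known for GRHL2 were read from a list of 13. In SCC25, where GRHL2 fell, 6 were higher, 5 lower and 2 not called (median log2 fold change -0.11), against 38.3% and 38.5% of all genes tested. PRSS8 (1.44, SE 0.058) and MAL2 (1.02, SE 0.054) led the rises, and ERBB3 (-1.07, SE 0.054) and ST14 (-0.49, SE 0.037) the falls, as log2 fold changes. PRSS8 and ST14 encode a pair of membrane serine proteases that activate each other. CDH1, the E-cadherin gene, averaged 3789 ± 220 with squamocin and 5204 ± 113 with DMSO (SD, n = 3), a log2 fold change of -0.46 (SE 0.047, adjusted p = 1.52e-06, limma), and EPCAM rose, by 1.00 (SE 0.039) on the log2 scale. In SCC15, 1 of 10 was higher (CLDN4, 1.03), 2 were lower (ERBB3, -1.34, and ESRP2, -0.88) and 7 were not called. Among those not called, 2 had reached the mean of 10 through 1 treatment alone. Without squamocin replicate 3, 8 were tested, of which 2 were higher (CLDN4 and SPINT1) and 4 lower (ERBB3, ESRP2, MAL2 and ST14). Over all genes tested in SCC15 with all 6 libraries, 30.9% were higher and 30.0% lower.

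Of 8 mesenchymal genes, 6 were higher, 1 lower and 1 not called in SCC25 (median log2 fold change 1.04), and 3 higher, 1 lower and 2 not called of the 6 tested in SCC15 (median 0.78). Without squamocin replicate 3, 3 were higher and 2 lower in SCC15, FN1 being added. Among all genes tested, 38.3% were higher and 38.5% lower in SCC25, and 30.9% and 30.0% in SCC15. TWIST1, a repressor of epithelial identity, rose in both, by 1.54 (SE 0.14) in SCC15 and 1.59 (SE 0.081) in SCC25. SNAI2 rose by 1.09 (SE 0.15) and 1.25 (SE 0.079). ZEB1 was lower in SCC15, with a log2 fold change of -0.52 (SE 0.13, adjusted p = 0.0113, limma). In SCC25 ZEB1 and VIM reached the mean of 10 through squamocin alone, and of the other 6 genes 4 were higher and 1 lower. The median of 1.04 includes ZEB1 and VIM, which had to differ to be tested. There ZEB1 went from 3.94 ± 2.82 to 31.0 ± 2.13 normalized counts (SD, n = 3), and VIM from 4.73 ± 5.26 to 17.5 ± 3.99, so both stayed low.

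The E3 ligases ITCH, WWP1 and WWP2 and the substrate receptor FBXW7 are known to mark members for degradation, ITCH for p63, WWP1 for p63 and KLF5, WWP2 for SOX2 and FBXW7 for KLF5. FBXW7 rose in both cell lines, from 292 ± 15.2 to 451 ± 41.5 normalized counts (SD, n = 3) in SCC15 and from 607 ± 45.0 to 1175 ± 66.1 in SCC25. Its log2 fold changes were 0.62 (SE 0.11, adjusted p = 0.00196, limma) and 0.95 (SE 0.068, adjusted p = 5.09e-08, limma), and that in SCC15 was 0.13 and not called under equal library totals. WWP1 fell in SCC15 (-0.63, SE 0.098, adjusted p = 0.00128, limma), and its log2 fold change in SCC25 was 0.06 (SE 0.091, adjusted p = 0.528, limma). WWP2 was lower in SCC25 (-0.21, SE 0.061, adjusted p = 0.00692, limma) and not called in SCC15 (-0.06, SE 0.086). ITCH passed in SCC15 (0.30, SE 0.077, adjusted p = 0.0128, limma), without the call by edgeR or without any 1 DMSO library and with the sign reversed under equal library totals. The counts for these 4 genes in SCC15 were equal without squamocin replicate 3. Protein levels were not analysed here.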

How the data were processed

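RNA-seq of SCC15 and SCC25 cells with squamocin or DMSO (3 libraries each) was used. The authors aligned reads to GRCh38 with HISAT2 2.0.5 and counted them with featureCounts 1.5.0-p3. The deposited signal per gene is a read count divided by 1 size factor per library, although the columns of the SCC25 table are named FPKM. The authors' own fold changes and p-values were also deposited and were not used. The size factors were recovered from the values, and 100% of the values in each library came out as whole reads (tolerance 0.1 read). The tables were scaled separately, so levels were not tested between cell lines.

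The main test was two-sided and used limma 3.58.1 (R 4.3.3, moderated with a trend) on log2 values with a pseudocount of 1, for genes whose mean was 10 or more, with Benjamini-Hochberg adjustment over all genes tested. The settings also tried were DESeq2 1.42.0 and edgeR 4.0.16 on recovered reads, TMM factors, equal library totals, a pseudocount of 0.1 or 10, every gene above 0, replicate number as a block and each library left out in turn. The scripts were tested on simulated data. Members and lists were chosen with earlier results of these data known. All members and overlapping genes were named, the 4 E3 ligases and the marker genes, and from each list up to 2 rises and 2 falls per cell line with a mean of 100 or more and separate treatment ranges. TP73, CDH1, EPCAM, SPINT1, ITGA6, COL1A1 and COL3A1 were added or repeated after their values had been seen. So were PIK3CA, ELF3 and CEBPD in SCC25, KRT15, IGFBP3, CEBPB and KLF6 in SCC15, and the ratios within libraries. Read ratios of low genes carry exact 95% intervals. Protein sequences were not used here. Results for some single genes that the rule would name are not reported here.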

Additional observations from a re-analysis of the deposited data

Results flagged for a closer look

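The responses of 5 members differed between the cell lines by limma's test of the difference itself, SCC15 minus SCC25 on the log2 scale. The difference was -1.51 for KLF4, which was higher in all 3 squamocin libraries of both cell lines, and 0.61 for KLF5, likewise higher in both. It was -0.74 for TFAP2A, lower in the 3 squamocin libraries of SCC15 and higher in the 3 of SCC25. It was -1.04 for TFAP2C, for which the treatments overlapped in SCC25, and -1.31 for TP63, for which they overlapped in SCC15. The same test called 52.2% of the 14454 genes with a value in each line. Single values in groups of 3 libraries were not tested for outliers.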

How the results depend on the processing

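Across 19 log2 fold changes and differences of members with a test, 294 alternative values were computed. Of these, 288 kept direction and call, 4 lost the call, 2 gained one and 0 reversed. The replicate numbers did not pair the libraries (correlations of same-numbered libraries -0.051 to 0.008). With the replicate block, 1 member was called lower in SCC15, since TFAP2A had an adjusted p of 0.0677 (limma), and the block changed no other call of a member. With each library left out in turn, 1 to 2 members were called lower in SCC15. Under equal library totals, 0 members were called with a larger response in SCC15, since KLF5 lost its call at a difference of 0.32, while TP63 in SCC15 and TFAP2C in SCC25 gained calls. With that scaling, 2357 of all 15902 genes were higher and 8032 lower in SCC15, and 5032 and 7839 of 16539 in SCC25. List counts moved too. The other keratinocyte factors gave 6 higher and 14 lower in each cell line. The basal list gave 6 and 10 in SCC15 and 7 and 11 in SCC25, and the GRHL2 list 1 and 6 in SCC15 and 6 and 6 in SCC25. Of 1062 alternative values for other named genes, 19 lost the call, 11 gained one and 1 reversed, ITCH in SCC15 at -0.20 under equal library totals. These values leave out KRT15, IGFBP3, FN1, SPINT1, MAL2, ST14, CEBPB and KLF6 in SCC15. They also leave out PIK3CA, CDH1, EPCAM, ELF3 and CEBPD in SCC25. The causes were not tested. Among the tested members, depth limits TP63 in SCC15 and GRHL3 in SCC25. OVOL1, SOX2, ZNF750 and GRHL3 in SCC15 and SOX2 in SCC25 had a test with all genes above 0 alone, and GRHL3 in SCC25 fell below the mean required without squamocin replicate 1 or 2.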
